A study of Homo sapiens with 12 samples.

Results

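Of the 10 hypoxia response and glucose transporter genes examined here, NDRG1 and SLC2A3 had higher transcript levels in RD cells that received siRNA against EHMT1, 7 did not pass the test and CA9 was too low to be tested. The genes were taken by symbol as targets of the hypoxia-inducible factors (HIF) and transporters of glucose; the rule sets no threshold on measured values, but the choice was made with earlier results of these data known: NDRG1, SLC2A1, SLC2A3, VEGFA, CA9, ADM, BNIP3, PDK1, EGLN3 and ANKRD37. Each symbol matched 1 of the 61552 gene identifiers in the count files, and 9 of the 10 were among the 18646 genes tested. RD is an established human line of embryonal rhabdomyosarcoma, a soft tissue tumour with features of immature skeletal muscle; the labels call its genotype FN-RMS. The cells were transfected by Lipofectamine RNAiMAX with EHMT1-specific siRNA (n = 3 libraries) or with scrambled siRNA (n = 3 libraries), and RNA was taken after 48 h. EHMT1, also called GLP, methylates lysine 9 of histone H3. All libraries came from 1 cell line. The labels give neither the sequence of the siRNA nor whether it was single or a pool. The 6 libraries of a SOX8 siRNA experiment in the same series were not analysed here.

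In oxygenated cells, prolyl hydroxylases of the EGLN family mark the HIF alpha subunits for destruction by the VHL ubiquitin ligase. When oxygen is scarce the alpha subunits persist, pair with ARNT and bind the hypoxia response element in target genes, so that activity is set largely at the level of HIF protein, which RNA counts do not measure. The targets carry glucose into the cell, divert pyruvate from mitochondria, bring in blood vessels and balance pH. In muscle and muscle tumours the same genes also respond to growth factor, nutrient and stress signals.

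The core letters that HIF reads in DNA are ACGTG or GCGTG, and CACGT and CACGC are the same letters on the opposite strand. RefSeq promoter windows on GRCh38.p14, from 250 bases before to 50 after a start site, were searched on both strands for 7 of the genes. These were SLC2A1, PDK1, ANKRD37, CA9, BNIP3, ADM and EGLN3, with 8 windows in all since PDK1 has a pair. NDRG1 was left out of the search, and no window was matched for SLC2A3 or VEGFA. The core in either form was in 6 of the 8 windows, and in 48.4% of all 35116 windows of that length. The ACGTG form was in 4 of the 8, and in 21.4% of all windows. These 4 are shown because they hold the ACGTG form, with each core in capitals. In CACGTG the matches of both strands overlap. Of the genes shown, CA9 was not tested for a change, and ANKRD37, PDK1 and BNIP3 did not pass the test. A match is a description of the letters and not a tested binding site. The windows lie on the plus strand at chr9:35673892-35673932 for CA9, chr4:185396661-185396720 for ANKRD37 and chr2:172556055-172556104 for PDK1, and on the minus strand at chr10:131982005-131982084 for BNIP3.
CA9: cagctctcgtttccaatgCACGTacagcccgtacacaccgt
ANKRD37: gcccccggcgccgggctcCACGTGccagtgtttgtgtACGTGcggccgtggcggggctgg
PDK1: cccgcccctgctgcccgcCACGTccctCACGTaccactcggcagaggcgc
BNIP3: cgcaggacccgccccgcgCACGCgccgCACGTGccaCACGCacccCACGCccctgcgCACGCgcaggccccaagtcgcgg

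The libraries held 40639655 to 47258481 gene counts, and levels are given as CPM, counts scaled to the TMM-adjusted total of each library. EHMT1, the target, checked the labels: it had 53.2, 54.4 and 57.6 CPM in the EHMT1 siRNA libraries, against 130.9, 155.9 and 130.1 CPM in the scrambled libraries (log2 fold change -1.34, SE 0.072, edgeR adjusted p = 9.13e-09). Scrambled replicate 2 stood apart, at -36.4 on the first principal component against -16.0 and -9.16 for the other scrambled libraries, and its mitochondrial share of counts was 5.41% against 4.29% to 4.83% in the other 5 libraries. The muscle tumour markers MYOD1, MYOG, DES, CHRNA1, MYF5, PAX7 and PAX3 summed to 1276 to 1335 CPM in EHMT1 siRNA libraries and 1138 to 1290 CPM in scrambled libraries, with MYF5 at 0 in all 6 and PAX7 the only 1 called, at a log2 fold change of 0.28 (edgeR adjusted p = 0.0058). CHRNA1 was the largest part of the sum, with means of 716.0 CPM with EHMT1 siRNA and 638.1 CPM with scrambled siRNA. The means of MYOD1 and PAX7 were also higher with EHMT1 siRNA, and those of MYOG, DES and PAX3 were lower. Summed markers of other cell types were at most 0.439 and 0.501 CPM (epithelial EPCAM, KRT5, CDH1), 0.662 and 0.576 CPM (endothelial PECAM1, CDH5, VWF) and 0.366 and 0.188 CPM (blood PTPRC, CD3E, LYZ) in any EHMT1 siRNA and any scrambled library. In these bulk libraries a change in the share of cells that express a gene and a change in RNA per cell cannot be told apart.

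With EHMT1 siRNA, 2 of the 9 genes rose and 0 fell (edgeR quasi-likelihood test, Benjamini-Hochberg adjusted p under 0.05 over all genes). Over all genes tested, 5.81% rose, 6.54% fell and 12.4% changed in either direction. At an unadjusted p under 0.05, 4 of the 9 passed, of which NDRG1, SLC2A3 and SLC2A1 were higher and PDK1 was lower with EHMT1 siRNA, against 25.6% of all genes tested; DESeq2 and limma-voom also called 0 that fell. The median log2 fold change of the 9 was 0.13, with 7 values above 0, against a median of 0.00 over all genes tested. The 3 EHMT1 siRNA libraries did not overlap the 3 scrambled libraries for 6 of the 9 genes, against 30.9% of all genes tested. In an exact permutation test over the libraries (two-sided), these 6 genes reached p = 0.1, which is as low as 3 against 3 can go, and the other 3 had 0.4 to 0.8.

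**Figure D1:**
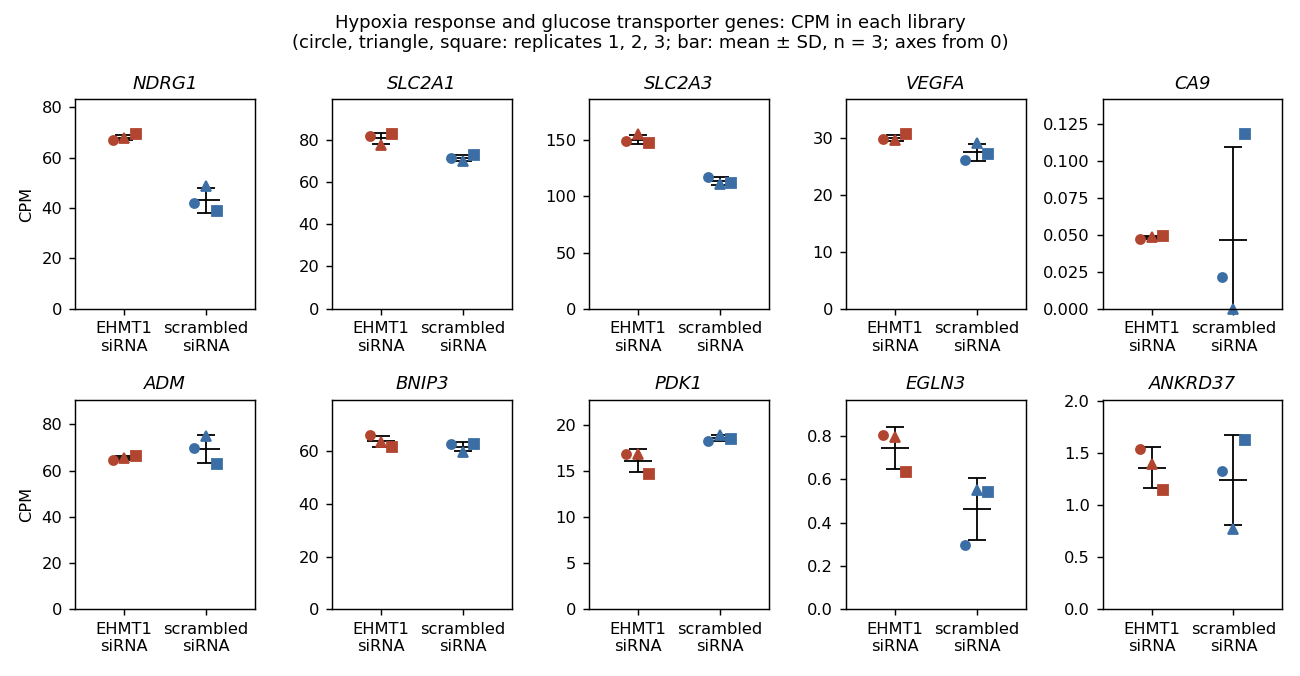
CPM of each of the 10 genes in the 3 EHMT1 siRNA libraries (red, left) and the 3 scrambled libraries (blue, right), with the mean and SD of each group as black bars; each panel has its own axis from 0. NDRG1 and SLC2A3 show the clearest gap, and CA9 lies at or below 0.118 CPM in every library.

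Glucose uptake starts with the facilitative transporters of the SLC2A family. SLC2A3 (ENSG00000059804), the high-affinity transporter GLUT3, had 149.1, 155.4 and 147.7 CPM in the EHMT1 siRNA libraries, against 117.7, 111.4 and 112.2 CPM in the scrambled libraries. Every EHMT1 siRNA library lay above every scrambled library, and the gap between the groups was wider than the range within either. The mean was 132.5% of that with scrambled siRNA, a log2 fold change of 0.41 (95% interval 0.29 to 0.52, edgeR adjusted p = 0.000162). The call held without any 1 of the 6 libraries, with log2 fold changes of 0.38 to 0.43.

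SLC2A3 has a close copy on the same chromosome, SLC2A14, and reads that fit both equally are not assigned to either in this kind of count. SLC2A14 held 25 to 30 reads in EHMT1 siRNA libraries and 9 to 17 in scrambled libraries, against at least 4449 for SLC2A3 in any library. Its log2 fold change was 1.08 (95% interval 0.34 to 1.82), short of the threshold at an edgeR adjusted p = 0.0538. How reads were shared between the copies was not tested.

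SLC2A1 (ENSG00000117394) encodes GLUT1, the transporter of basal glucose uptake in many cell types. It had 81.9, 77.6 and 82.7 CPM in the EHMT1 siRNA libraries, against 71.3, 70.2 and 73.1 CPM in the scrambled libraries. The groups did not overlap, but the difference was small, at 112.8% of the scrambled mean. The log2 fold change was 0.17 (95% interval 0.05 to 0.29, before adjustment) and fell just short of the threshold (edgeR adjusted p = 0.0534). SLC2A1 passed under 6 of 15 alternatives. These included leaving out scrambled replicate 2 (log2 fold change 0.16, edgeR adjusted p = 0.0328) and DESeq2 (0.17, adjusted p = 0.0369). Strand column 4, which holds most of the strand counts, was also among them (0.19, edgeR adjusted p = 0.0355). The position of SLC2A1 at the threshold was thus decided by the setting.

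NDRG1 (ENSG00000104419), a stress-responsive gene of differentiation and growth control that is strongly induced in hypoxia, had the larger change of the 2 genes called among the 10. It had 66.9, 67.7 and 69.2 CPM in the EHMT1 siRNA libraries, against 41.8, 48.5 and 38.9 CPM in the scrambled libraries. The EHMT1 siRNA libraries lay close together and above all scrambled libraries, among which replicate 2 was highest. The means were 67.9 ± 1.17 CPM with EHMT1 siRNA and 43.1 ± 4.93 CPM with scrambled siRNA (SD, n = 3 each), a 1.58-fold difference (log2 fold change 0.66, 95% interval 0.50 to 0.81, edgeR adjusted p = 2.08e-05). Without scrambled replicate 2 the log2 fold change was 0.75, and over the 6 fits that left out 1 library it was 0.59 to 0.75, past the threshold in all 6.

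Of the 3 other genes of the NDRG family, 0 rose and 1 fell. NDRG4, a gene of brain and heart, had 20.8 ± 0.929 CPM with EHMT1 siRNA and 24.8 ± 2.01 CPM with scrambled siRNA (SD, n = 3 each; log2 fold change -0.25, edgeR adjusted p = 0.0402). Leaving out scrambled replicate 1, or whichever EHMT1 siRNA library, ended that call. NDRG3 had 107.4 ± 1.94 CPM with EHMT1 siRNA and 112.9 ± 4.50 CPM with scrambled siRNA (SD, n = 3 each), and did not pass (log2 fold change -0.07).

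The 3 genes whose pattern over the 6 libraries was most like that of NDRG1 were ITGA3, TMEM86A and the unnamed ENSG00000269737. Likeness was the mean absolute difference of log2 CPM, each gene centred on its own mean, among genes with a mean of at least 2 CPM, and the differences were 0.05, 0.05 and 0.06. ITGA3, an integrin alpha subunit that binds laminin, had 64.0, 66.5 and 69.4 CPM in EHMT1 siRNA libraries, against 37.9, 46.0 and 40.1 CPM in scrambled libraries. As for NDRG1, scrambled replicate 2 was the highest of its group. All of these genes share the same 6 libraries and were picked for likeness, so the match is a description.

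VEGFA and ADM encode secreted factors of blood vessel growth and tone. VEGFA (ENSG00000112715), the main growth factor for endothelium, had 29.7, 29.6 and 30.6 CPM in EHMT1 siRNA libraries, against 26.0, 29.1 and 27.1 CPM in scrambled libraries. The groups were separated by a narrow gap, and the log2 fold change of 0.13 (95% interval -0.01 to 0.27) had an edgeR adjusted p = 0.245, not past the threshold. ADM (ENSG00000148926), the vasodilator peptide adrenomedullin, had 64.6, 65.4 and 66.1 CPM in EHMT1 siRNA libraries, against 69.6, 75.1 and 63.0 CPM in scrambled libraries. The EHMT1 siRNA libraries all fell inside the scrambled range, and the log2 fold change of -0.08 (95% interval -0.22 to 0.06) had an edgeR adjusted p = 0.472. NDRG1, VEGFA, ADM, PDK1 and EGLN3 had their highest scrambled value in replicate 2, the library that stood apart. Without it the log2 fold change was 0.17 for VEGFA (edgeR adjusted p = 0.07) and -0.026 for ADM (edgeR adjusted p = 0.804). Without scrambled replicate 3 that of ADM was -0.15 (edgeR adjusted p = 0.144), so its value moved by over 1.5 times with single scrambled libraries.

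BNIP3 and PDK1 act on mitochondria. BNIP3 (ENSG00000176171), a membrane protein that promotes removal of mitochondria, had 66.0, 63.4 and 61.7 CPM in EHMT1 siRNA libraries, against 62.8, 59.6 and 62.7 CPM in scrambled libraries. The ranges overlapped, and the 95% interval of its log2 fold change, -0.08 to 0.17 around 0.05, was among the narrowest of the 9 genes (edgeR adjusted p = 0.674). PDK1 (ENSG00000152256), a kinase that switches off pyruvate dehydrogenase, pointed the other way from the transporters, with 16.8, 16.8 and 14.7 CPM in EHMT1 siRNA libraries against 18.3, 18.8 and 18.5 CPM in scrambled libraries. Every EHMT1 siRNA library was below every scrambled library, but the log2 fold change of -0.20 (95% interval -0.37 to -0.03, before adjustment) did not pass over all genes (edgeR adjusted p = 0.111), nor under any of 15 alternatives.

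EGLN3, ANKRD37 and CA9, which are often among the genes most responsive to hypoxia, were at low levels in all libraries. EGLN3 (ENSG00000129521), an oxygen sensor that HIF itself induces, had 34, 33 and 26 reads in EHMT1 siRNA libraries, against 14, 22 and 23 reads in scrambled libraries. The groups did not overlap in CPM, at 0.804, 0.795 and 0.635 CPM with EHMT1 siRNA and 0.299, 0.551 and 0.542 CPM with scrambled siRNA. Its log2 fold change of 0.69 had a wide interval, -0.01 to 1.39, and missed the threshold (edgeR adjusted p = 0.201). It was 0.44 without scrambled replicate 1, the lowest library, and 0.83 without scrambled replicate 2.

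ANKRD37 (ENSG00000186352), an ankyrin repeat protein, had 1.54, 1.40 and 1.15 CPM in EHMT1 siRNA libraries, against 1.32, 0.776 and 1.62 CPM in scrambled libraries. The scrambled libraries spread more widely than the groups differed (log2 fold change 0.13, 95% interval -0.42 to 0.67, edgeR adjusted p = 0.813), and without scrambled replicate 2 the log2 fold change was -0.12. In the annotation, 35.2% of its exon bases also lie in UFSP2, on the opposite strand, and 78.1% of its reads split by strand were in strand column 3, while strand column 4 held 87.1% to 89.0% of strand counts over all genes, so its value is uncertain. CA9 (ENSG00000107159), a carbonic anhydrase at the cell surface and a common marker of hypoxic tumour tissue, had 2 reads in each EHMT1 siRNA library, against 1, 0 and 5 reads in scrambled libraries. All but 1 of these were below 3 reads, the level of 0.0641 to 0.0751 CPM that a count of 0 still allows, so no fold change is given. Of its exon bases, 38.5% also lie in ARHGEF39 on the opposite strand.

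**Figure D2:**
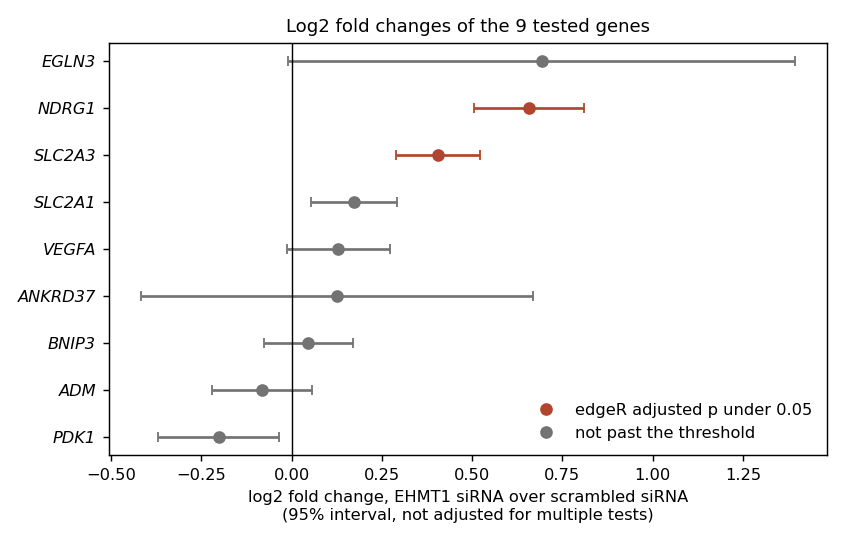
Log2 fold change of the 9 tested genes, EHMT1 siRNA over scrambled siRNA, with 95% intervals from the edgeR fit that are not adjusted for multiple tests. NDRG1 and SLC2A3 (red) passed the adjusted threshold; EGLN3 and ANKRD37 have the widest intervals.

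Levels can be compared between genes only per length, here as CPM per kilobase of all annotated exons joined. On that scale SLC2A3 at 24.5 ± 0.661 and ADM at 24.1 ± 0.282 led in EHMT1 siRNA libraries (SD, n = 3 each) and did not differ beyond their spread, followed by SLC2A1 at 17.1, BNIP3 at 11.97 and NDRG1 at 6.92. In scrambled libraries ADM led at 25.5 ± 2.23, before SLC2A3 at 18.5 ± 0.559, SLC2A1 at 15.1, BNIP3 at 11.6 and NDRG1 at 4.39. VEGFA, PDK1, ANKRD37, EGLN3 and CA9 followed in this order in both groups, with CA9 at 0.0288 and 0.0278. SLC2A3 and ADM thus stood in the opposite order in the means of the groups. Joined exons lengthen genes with many isoforms, such as VEGFA at 14.4 kb and PDK1 at 14.9 kb, and so lower their values.

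**Figure D3:**
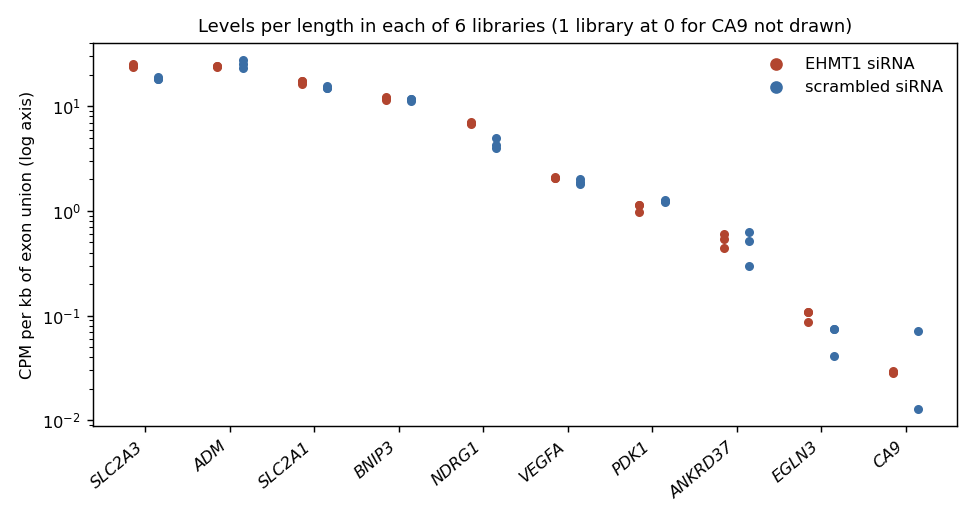
Level of each gene per kilobase of joined exons on a log axis, 1 point per library, EHMT1 siRNA in red and scrambled siRNA in blue. SLC2A3 and ADM are at the top and CA9 at the bottom, with its 1 library at 0 not drawn.

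The genes around these 10 were taken from 8 lists by role, 102 genes in all, of which 93 were tested. Across them 10 rose and 2 fell, against 5.81% and 6.54% of all genes tested, and the median log2 fold change was 0.02. Leaving out scrambled replicate 2 gave 16 that rose and 6 that fell, and leaving out any 1 of the EHMT1 siRNA libraries gave 7 to 9 and 0. Leaving out scrambled replicate 1 gave 13 that rose and 1 that fell, and leaving out scrambled replicate 3 gave 11 and 5. The genes that rose were spread over 6 of the lists.

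Of the 12 HIF subunits and oxygen sensors, 1 rose and 0 fell. It was EPAS1, the alpha subunit also called HIF-2 alpha, at 12.3 ± 0.163 CPM with EHMT1 siRNA and 8.70 ± 0.558 CPM with scrambled siRNA (SD, n = 3 each; log2 fold change 0.51, SE 0.089, edgeR adjusted p = 0.00133). HIF1A, named here because it encodes the other main alpha subunit and not by the rule for named genes, had 115.4 ± 1.39 CPM with EHMT1 siRNA and 114.6 ± 3.21 CPM with scrambled siRNA, a log2 fold change of 0.01 (95% interval -0.11 to 0.12). The coactivators CREBBP at -0.14 and EP300 at 0.08 had the highest CPM of the list, not scaled to length, and neither passed the test. The median of the list was 0.06.

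Among 8 tested glucose transporters beyond SLC2A1 and SLC2A3, 1 rose and 0 fell, with a median log2 fold change of 0.02. SLC2A10, the transporter GLUT10 found in the endomembrane system, had 48.9 ± 1.59 CPM with EHMT1 siRNA and 37.9 ± 0.633 CPM with scrambled siRNA (SD, n = 3 each; log2 fold change 0.37, edgeR adjusted p = 0.000713). SLC2A6, the other of the list with a high CPM, was at -0.05. SLC2A4, the insulin-responsive transporter of mature muscle and named after its value was seen, was near the limit of detection at 0.313 CPM with EHMT1 siRNA and 0.590 CPM with scrambled siRNA (log2 fold change -0.91, edgeR adjusted p = 0.116).

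Of 19 glycolysis enzymes, which act on the glucose that these transporters bring in, 0 rose and 1 fell, and the median log2 fold change was -0.02. ENO1, the enolase of most tissues, had 1192 ± 17.6 CPM with EHMT1 siRNA and 1376 ± 42.6 CPM with scrambled siRNA (SD, n = 3 each; log2 fold change -0.21, edgeR adjusted p = 0.0201), which no longer passed when whichever EHMT1 siRNA library was left out. GAPDH at 0.06 and the pyruvate kinase PKM at 0.02, which had the highest CPM of the list, did not pass. The log2 fold changes of the whole list ran from -0.24 to 0.17. The lowest was that of LDHB, with a wide 95% interval of -1.02 to 0.55. LDHB and ALDOA, named after their values were seen, were low, at 4.42 and 1.32 CPM with EHMT1 siRNA. Both share exon bases with another gene on the same strand, so their values are uncertain.

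Of 11 tested genes of pyruvate, lactate and pH control, 1 rose and 0 fell, with a median of 0.01. SLC16A3, the lactate exporter MCT4 and itself a HIF target, had 30.9 ± 1.52 CPM with EHMT1 siRNA and 23.5 ± 2.55 CPM with scrambled siRNA (SD, n = 3 each; log2 fold change 0.39, edgeR adjusted p = 0.00403). SLC16A1, the lactate transporter MCT1, was at 0.01 and the phosphatase gene PDP1, which opposes PDK1, at -0.06. The arrestin gene TXNIP, which limits glucose uptake and is induced by glucose through MLXIP, rose by 0.25 on the log2 scale (edgeR adjusted p = 0.01), the only 1 of 5 in its list; leaving out EHMT1 siRNA replicate 1 or 2 ended the call. MLXIP itself was at 0.07.

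Of 26 further HIF target genes, 3 rose and 0 fell, against 5.81% and 6.54% of all genes tested. Their median log2 fold change was 0.08. LOX, a collagen cross-linking enzyme, had 128.6 ± 5.85 CPM with EHMT1 siRNA and 81.1 ± 8.82 CPM with scrambled siRNA (SD, n = 3 each; log2 fold change 0.66, edgeR adjusted p = 1.62e-05). HMOX1, the heme-degrading enzyme and also a target of oxidative stress factors, had a log2 fold change of 0.58 (edgeR adjusted p = 2.63e-05). The genes with the highest CPM, STC2 at 0.13 and the transferrin receptor TFRC at -0.03, did not pass. LOX and HMOX1 held when any 1 library was left out.

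In the list of VEGF and adrenomedullin partners, 3 of 9 tested genes rose and 0 fell, with a median of 0.19. The shares over all genes tested were 5.81% and 6.54%, with a median of 0.00. PGF, a VEGF family ligand that binds FLT1, had 349.1 ± 10.5 CPM with EHMT1 siRNA and 246.5 ± 4.15 CPM with scrambled siRNA (SD, n = 3 each; log2 fold change 0.50, edgeR adjusted p = 1.66e-05). CALCRL, the receptor through which adrenomedullin acts, had a log2 fold change of 0.43 (edgeR adjusted p = 0.00618), a call lost without EHMT1 siRNA replicate 2 (adjusted p = 0.0504). NRP1, a co-receptor for VEGFA, had a log2 fold change of 0.24 (edgeR adjusted p = 0.0467). It no longer passed when scrambled replicate 3 or whichever EHMT1 siRNA library was left out. Nor did NRP1 pass in strand column 4 with no library left out (log2 fold change 0.22, edgeR adjusted p = 0.0966). NRP2, a further co-receptor, with the highest CPM of the list after PGF, was at 0.16 and did not pass (edgeR adjusted p = 0.0723).

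**Figure D4:**
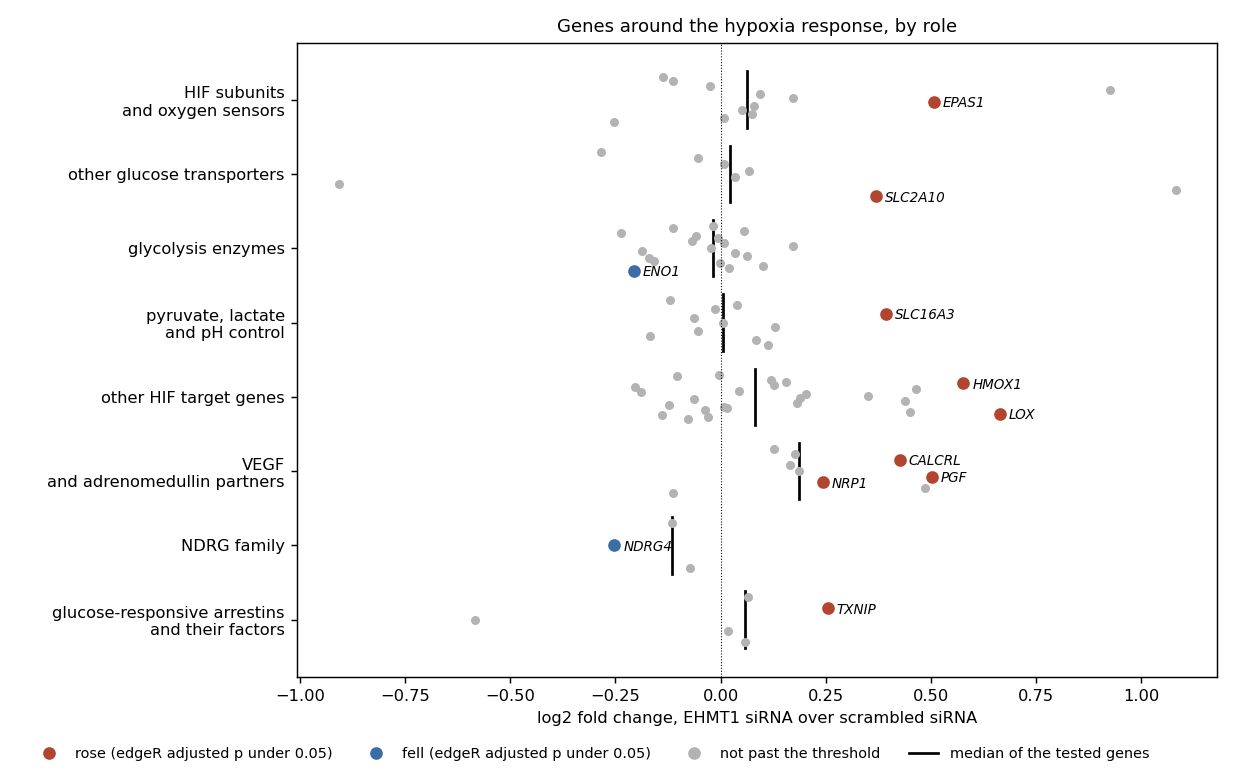
Log2 fold change of the tested genes in the 8 lists, EHMT1 siRNA over scrambled siRNA, 1 point per gene; red and blue points rose or fell at an edgeR adjusted p under 0.05, and the black line is the median of the list. The medians lie between -0.12 and 0.19, and no test of whole lists was run.

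**Figure D5:**
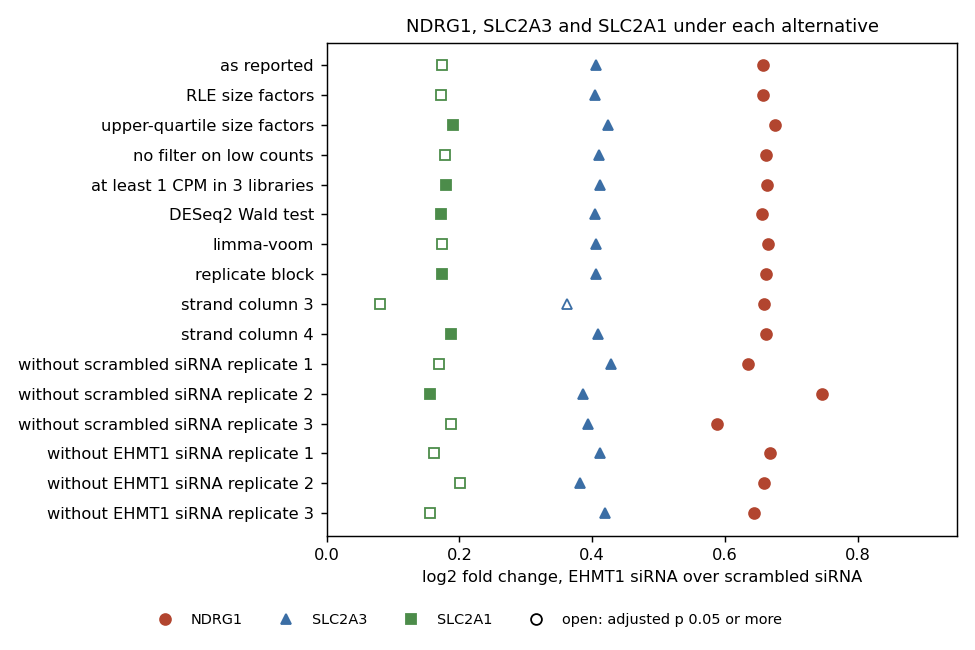
Log2 fold change of NDRG1, SLC2A3 and SLC2A1 as reported and under 15 alternatives, with open symbols where the adjusted p was 0.05 or more. NDRG1 stayed between 0.59 and 0.75 and was past the threshold in all, SLC2A3 in all but strand column 3, and SLC2A1 in 6.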

How the data were processed

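Poly-A RNA was sequenced from 6 libraries. The authors deposited raw gene counts, not normalized, in the gene count layout of the STAR aligner. The submitters' processing notes name STAR 2.5, HTSeq 0.6.1, DESeq2 and the build hg19. Of the 61552 identifiers, 58352 are in GENCODE release 29, later than hg19, so coordinates are given only for RefSeq promoter windows. Reads that named no gene, 20.0% to 21.2% of the total, stayed out. The unstranded column was the main one; reads in exons of overlapping genes are then not assigned, and a gene and its antisense partner cannot be told apart.

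The test was edgeR 4.0.16 under R 4.3.3. Genes were kept by filterByExpr at a minimum count of 10 and scaled by TMM. A robust quasi-likelihood model held the group as its only term, with Benjamini-Hochberg adjustment over all genes tested; it was first tested on simulated data. SE is the log2 fold change over the root of F. Alternatives were RLE and upper-quartile factors, no filter, a filter of 1 CPM in 3 libraries, limma-voom (limma 3.58.1), DESeq2 1.42.0, a replicate block, each strand column, a threshold of 0.01 and leaving out each library.

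Within a group, pairs of libraries differed beyond sampling noise (chi-square over degrees of freedom 2.80 to 3.12 with EHMT1 siRNA and 8.05 to 18.7 with scrambled siRNA), and none were merged. Whether they were separate cultures is not in the labels; p-values reflect only the variation among these libraries, possibly technical. Intervals and floors (3 counts) cover no such effects. The genes and lists were chosen with earlier results of these data known. The text names, besides the 10 genes, every called gene of a list, its 2 genes of highest CPM, SLC2A14, and the 3 genes most like NDRG1; others are marked. Of the listed genes, 1 of the lists is counted but not reported here by name or drawn.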

Additional observations from a re-analysis of the deposited data

How the results depend on the processing

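Of the 10 genes, 2 rose and 0 fell as reported; the count of risen genes was 1 in strand column 3, which holds few of the reads, and 2 or 3 under the other 15 alternatives, SLC2A1 being the third. With 1 library left out it was 2 to 3, and the count of fallen genes 0. ANKRD37 changed sign in strand column 3 (-0.094) and, over the fits without 1 library, ran from -0.12 (without scrambled replicate 2) to 0.36 (without scrambled replicate 3), and NRP1 in strand column 3 (-0.11); no other gene named with a call did so. Over all genes, 90 rose and 87 fell in strand column 3, and 492 and 525 at a threshold of 0.01; leaving out single libraries gave 452 to 1625 risen and 484 to 1923 fallen genes, lowest when EHMT1 siRNA replicate 2 was dropped and highest when scrambled replicate 2 was. In the 8 lists, 2 rose and 0 fell in strand column 3, 1 fell with upper-quartile factors and 0 at a threshold of 0.01; leaving out single libraries gave 7 to 16 risen and 0 to 6 fallen. For all of these the cause was not tested. With the replicate block, 18 genes of the lists rose and 6 fell, 1474 and 1632 over all genes, and SLC2A1 passed (0.17, adjusted p = 0.0365); same-numbered libraries deviated together with correlations of 0.02 to 0.06, and no label says what a number marks, so the numbers were not taken to pair the libraries. EGLN3 had at most 34 reads and CA9 at most 5 in any library.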

Other observations

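Some glycolysis genes had low counts in the unstranded column. ALDOA, the aldolase of muscle, had 1.32 CPM with EHMT1 siRNA and 1.51 CPM with scrambled siRNA, and LDHB had 4.42 and 5.18 CPM, against 783.9 and 796.4 CPM for LDHA. In GENCODE release 29, 42.3% of the exon bases of ALDOA lie in another protein-coding gene on the same strand, and 33.4% of those of LDHB. GAPDH had 1.78 times as many reads in strand column 4 as in the unstranded column, and VHL 1.57 times. These genes were picked out after their values were seen, and what the overlaps do to their levels was not tested.

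SLC5A2, a kidney glucose transporter that was not tested, had 33 reads over the 6 libraries in the unstranded column, against 7161 in strand column 3 and 562 in strand column 4. Of the exon bases of SLC5A2, 31.1% also lie in RUSF1 and 9.6% in ENSG00000260740, both on the opposite strand.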
